A study of Mus musculus with 2 samples.

Results

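Heat shock proteins and other chaperones were compared between the cornea that had degenerated spontaneously and the normal one of Balb/c mice with 1 affected eye. The members were chosen by the deposited spot name: names beginning with Hsp (other than Hspg2), Dnaj, Cct or Pdia, and Canx, Calr, Hyou1 and Ddit3. This rule took 73 spots with 62 names, of 35852 gene spots in all. The gene spots with a name stood for 14773 genes, counted after names were updated to current symbols where possible. None of the 73 spots carried a Pdia name or the name Hyou1. Each of 2 spotted 2-colour arrays carried RNA of both tissues, with the degenerative cornea in Cy5 on array 1 and in Cy3 on array 2. The arrays form a dye swap and count as 1 replicate. The spread between animals is therefore unknown, and no p-value is given. The labels state neither age and sex nor how many mice gave RNA and whether it was pooled. All ratios are log2 ratios of degenerative over normal cornea as the authors normalized them, given for each array or as the mean ± SD of the 2 arrays.

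Chaperones bind unfolded or partly folded proteins and keep them from clumping. Small heat shock proteins hold clients, HSP70 and HSP90 proteins fold them in cycles driven by ATP, J proteins (the Dnaj genes) bring clients to HSP70, and the HSP60 and CCT rings enclose them. Heat shock factors switch on the cytosolic genes when proteins unfold, and the unfolded protein response does the same for genes of the endoplasmic reticulum (ER). In the eye, the alpha crystallins of the lens belong to the small heat shock protein family.

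No chaperone gene taken by the name rule changed by the size rule, which asked for a ratio of at least 1 in size (2-fold) in the same direction on each array. Of the 62 names, 51 had a spot above background in at least 1 tissue on each array, and 0 of these 51 were higher and 0 lower. Among all 7896 named genes above background, 0.317% were higher and 0.709% lower by this rule. At a size of 0.5 on each array 0 members were higher and 1, Hspb8, was lower, against 1.13% and 1.94% of all genes. The median ratio of the 51 members was -0.013, beside 0.0081 for all genes. Ratios were above 0 on both arrays for 17 members and below 0 on both for 20, which is 33.3% and 39.2% of them, against 34.6% and 32.9% of all genes. The other 14 members had opposite signs on the 2 arrays. A mean ratio within 0.25 of 0 was found for 45 of the 51 members (88.2%), and for 75.7% of all genes.

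**Figure D1:**
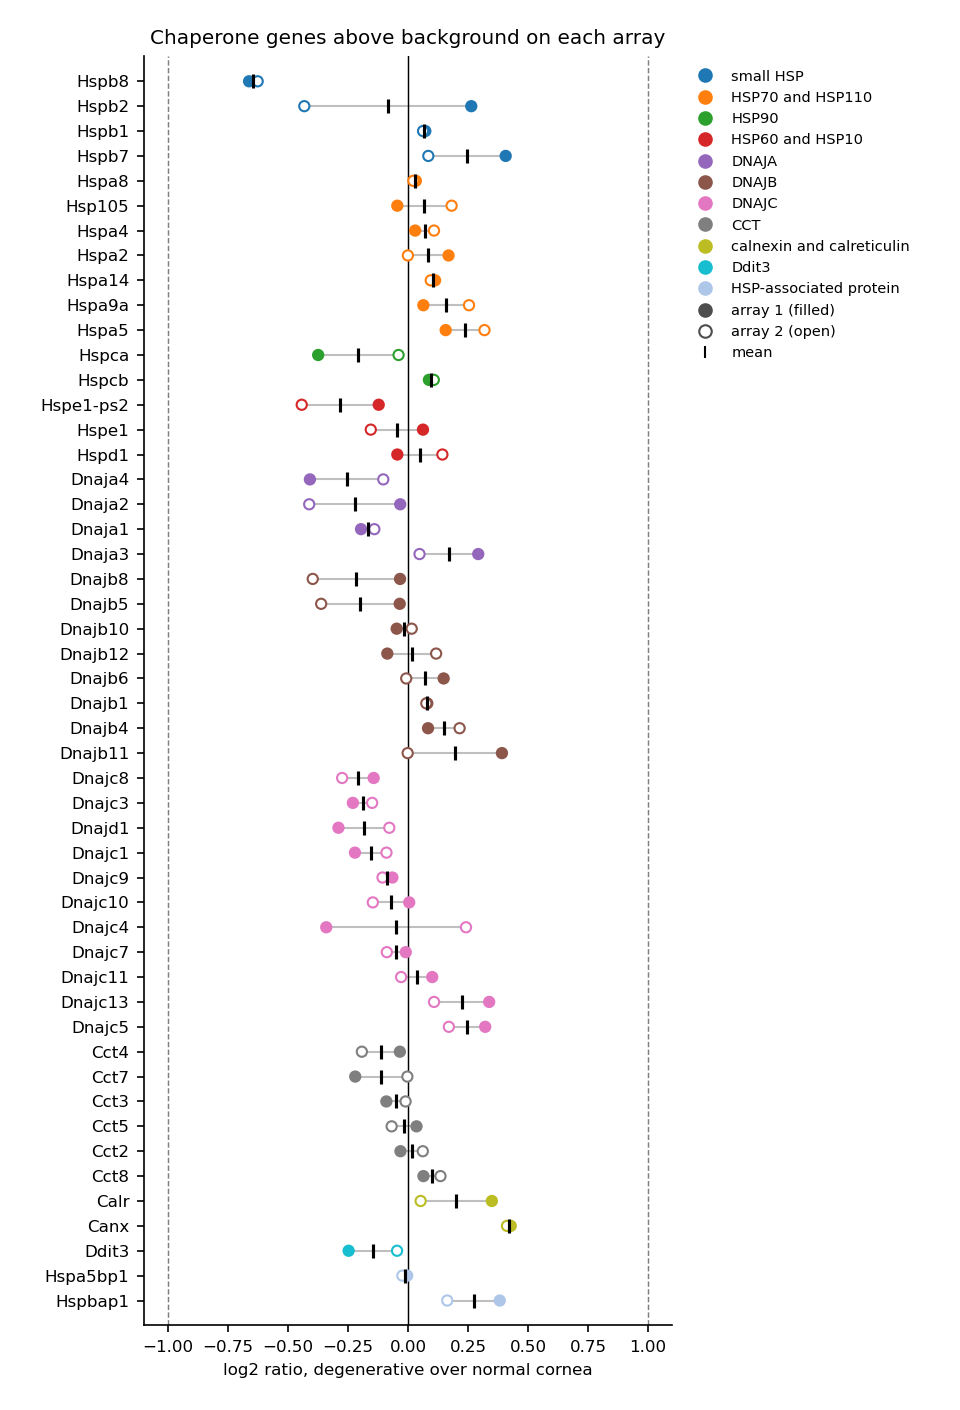
The log2 ratio of degenerative over normal cornea (horizontal axis) is plotted for 50 chaperone genes above background (vertical axis, coloured by class), with array 1 as filled points, array 2 as open points and the mean of both as a black bar. No gene reaches the dashed lines at 1 and -1, and Hspb8 is the only one below -0.5 on both arrays.

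The spread between the arrays limits what these small ratios show. The median SD between the arrays was 0.11 over the members and 0.10 over all genes, and 22 of 51 members had an SD of 0.1 or less. Pearson's r between the arrays was 0.456 over the 51 members, which share both arrays and both RNAs and are not independent. Reference spots printed 48 times on each array give another measure of the error. The 48 spots for Gapd had a mean ratio of 0.15 ± 0.053 (SD over spots) and the 48 for Ldha -0.065 ± 0.045, and none reached 0.5 in size. The median gene spot on array 1 had 246 in Cy5 and 439 in Cy3, and on array 2 it had 226 in Cy5 and 413 in Cy3, so its Cy3 was brighter on both. Each of these medians lay below the background limit of its channel, so they describe dim spots and not the bright members.

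**Figure D2:**
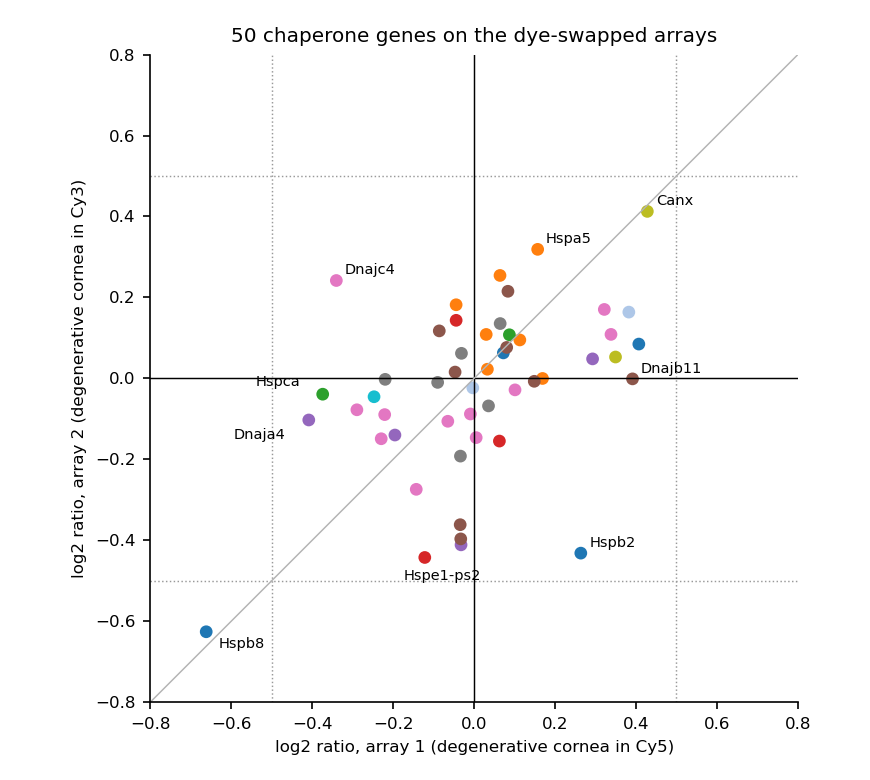
Each of 50 chaperone genes above background is a point, with its log2 ratio on array 1 on the horizontal axis and on array 2 on the vertical axis, coloured by class as in the plot of members by array. Dotted lines mark 0.5 and -0.5 and the diagonal marks equal ratios. Hspb8 and Canx lie near the diagonal, whereas Hspb2 and Dnajc4 lie off it with opposite signs.

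The RNA held more than corneal transcripts, and many of these differed between the tissues by the size rule. Of 10 corneal epithelium markers all were above background, with a median ratio of 0.13, and 6 of them were saturated (Krt12, Krt5, Krt14, Aldh3a1, Tkt and Upk1b). Of 11 photoreceptor markers 9 were above background, all lower by the size rule, with a median of -1.91. Their summed intensity was 43010 and 43343 in the degenerative cornea and 151604 and 131571 in the normal cornea. This list counts Rlbp1 (-1.90 and -2.05), a gene of other retinal cells, the Müller glia and the pigment epithelium. Of 12 lens markers 11 were above background, with a median of 1.71, and their summed intensity was 112185 and 117076 against 32712 and 31959. The 8 crystallins among them had means from 1.56 to 2.72, and the other lens markers Mip, Bfsp1 and Bfsp2 had 0.43, 0.092 and 0.085. Of 9 leukocyte markers 2 were above background, Cd68 with ratios of 0.31 and 0.18 and S100a8 with 0.042 and 0.020, while Ptprc, Cd14, Itgam, S100a9 and Cd3e were not. Prph2 and Tyr were not above background either. In such mixed RNA, fewer cells of a type and less RNA per cell cannot be told apart. The part of these tissues in any chaperone ratio was not tested.

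Among the small heat shock proteins, Hspb8 was the member farthest from 0. Hspb8 works with the co-chaperone Bag3 to pass clumped proteins to autophagy. Its spot had intensities of 1156 in the degenerative and 2142 in the normal cornea on array 1, and of 1423 and 1578 on array 2. The normal cornea was brighter on both arrays. The normalized ratios were -0.66 and -0.63 (mean -0.64 ± 0.025), a 1.56-fold lower level in the degenerative cornea. In the order of all 7896 genes its rank from the lowest was 147. Without loess, after centring each array on its median, the Hspb8 ratios were -0.28 and -0.69. That median was taken mostly over spots below the background limit, so these ratios depend on the centring. One spot carries the Hspb8 value. Its partner Bag3, on the list of pathway genes, had ratios of 0.16 and 0.15. Marker lists with a median of the same sign as Hspb8 were those of photoreceptors (-1.91) and of pigment cells (2 of 5 above background, -0.86). Another was that of keratocytes, the stromal cells of the cornea (5 of 7 above background, median -0.19). Of these 5, 4 were below 0 on both arrays and Thbs4 was above 0 on both (0.64 and 0.54). Muscle markers had a median of -0.24 (3 of 12 above background), and 2 of the 3 were below 0 on both arrays. The summed keratocyte markers had 72806 and 72913 in the degenerative and 91860 and 95333 in the normal cornea. The summed muscle markers had 4019 and 4053 in the degenerative and 5059.5 and 4039.5 in the normal cornea, and Myh1, Myh2, Myh4, Actn2, Des and Ckm were not above background. The part of these cells in the Hspb8 ratio was not tested.

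The other small heat shock proteins showed no such difference. Hspb1 (HSP25 of the mouse), which binds unfolded proteins and actin, had intensities of 59140 and 62116 on its 2 spots in the degenerative cornea and 55277 and 59606 in the normal cornea on array 1. On array 2 they were 51572 and 56521 in the degenerative and 59595 and 58614 in the normal cornea. Each tissue was thus brighter on 1 array, and the ratios were 0.072 and 0.063. These spots reached 77.1% to 95.5% of the highest intensity of their channel, close to the upper end of the scale. Hspb7, a heart and muscle protein, had dim spots (368 and 685 in the degenerative cornea, 408 and 490 in the normal) and ratios of 0.41 and 0.085. Hspb2, which lies beside Cryab in the genome, had 0.26 and -0.43, the widest disagreement of the 51 members. The 4 small heat shock proteins above background had a median of -0.0084, with 0.17 on array 1 and -0.18 on array 2.

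**Figure D3:**
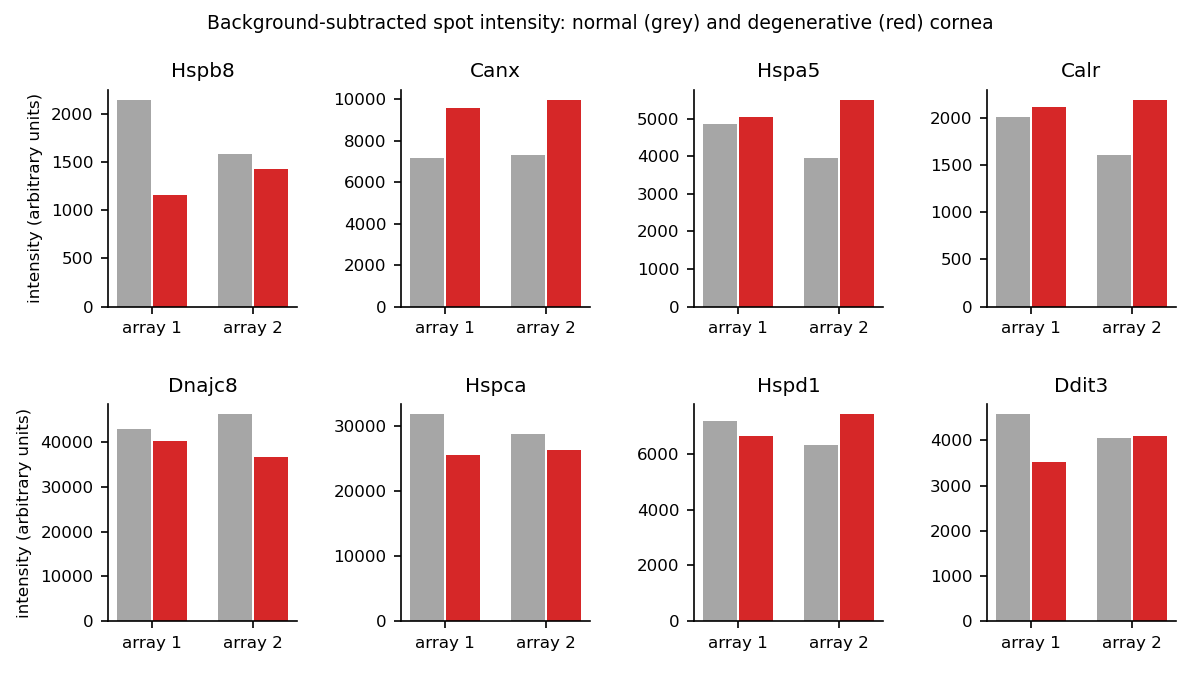
Bars start at 0 and give the background-subtracted intensity of normal (grey) and degenerative (red) cornea on each array for 8 chaperone genes, 1 spot per bar. Canx is brighter in the degenerative cornea on both arrays (9572 against 7139, and 9950 against 7299), and Hspb8, Hspca and Dnajc8 are brighter in the normal cornea on both. Intensities carry the dye difference that the normalized ratios remove.

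Chaperones of the ER had the highest median of the 3 cellular compartments, but it rested on array 1. Of 8 such members 7 were above background, with a median ratio of 0.20, beside -0.033 for the 30 members of the cytosol and nucleus and 0.043 for the 6 of mitochondria. On array 1 the ER median was 0.16 and on array 2 it was -0.0014. Of the 7, 3 were above 0 on both arrays (42.9%, against 34.6% of all genes) and 2 below 0 on both. All 4 ER genes given first below carry, upstream of their start, the ER stress response element (ERSE), which ATF6 and the factor NF-Y bind, and the sequences are shown because these genes are known targets of the unfolded protein response.

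The element searched was CCAAT and CCACG with 9 bases of any kind between them, on both strands, in RefSeq windows from 250 bases before to 50 after each gene's start (GRCm38.p6). It was found in 39 of 32851 windows (0.119%), and in those of 4 of the 49 member genes with a window, all of them among the 8 ER members. The letters are a match and not a tested site. Stretches of 80 bases are printed 5′ to 3′ on the strand of the gene, with the CCAAT and CCACG parts in capitals (in Calr the element lies on the other strand and reads CGTGG and ATTGG).
Hspa5 (chr2:34771994-34772073, plus strand): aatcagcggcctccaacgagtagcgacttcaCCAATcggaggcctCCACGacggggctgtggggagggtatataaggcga
Canx (chr11:50325770-50325849, minus strand): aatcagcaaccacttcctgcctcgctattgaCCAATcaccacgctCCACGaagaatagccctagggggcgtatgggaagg
Calr (chr8:84847045-84847124, minus strand): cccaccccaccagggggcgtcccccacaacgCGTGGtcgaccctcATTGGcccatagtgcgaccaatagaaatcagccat
Dnajc3 (chr14:118937796-118937875, plus strand): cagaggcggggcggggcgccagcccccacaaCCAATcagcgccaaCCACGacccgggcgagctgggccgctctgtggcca

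The 4 genes with this element did not share a direction. Canx, the membrane lectin calnexin that holds newly made glycoproteins, had intensities of 9572 in the degenerative and 7139 in the normal cornea on array 1, and of 9950 and 7299 on array 2. Its intensity was higher in the degenerative cornea on both arrays. Its normalized ratios were 0.43 and 0.41 (mean 0.42 ± 0.011, 1.34-fold), the highest mean of the 51 members, at rank 274 from the highest of the 7896 genes. Hspa5 (BiP), the HSP70 of the ER lumen and the usual marker of ER stress, had 5050 against 4859 on array 1 and 5502 against 3970 on array 2, again brighter in the degenerative cornea on both. Its ratios were 0.16 and 0.32 (0.24 ± 0.11). Without loess, after centring each array on its median, the signs were opposite on the arrays for Canx (1.04 and -0.097) and Hspa5 (0.67 and -0.073). That median was taken over all gene spots, most of which lay below the background limit in each channel. Before centring both genes were brighter in the degenerative cornea on both arrays, so their sign on array 2 depends on how ratios are centred. Calr, calreticulin, the soluble partner of calnexin, had 2117 against 2009 and 2191 against 1603, and ratios of 0.35 and 0.053. Dnajc3 (p58IPK), a J protein of the ER that also holds back the kinase PERK, had 1646 against 2062 and 1715 against 1737. Its ratios of -0.23 and -0.15 (-0.19 ± 0.057) were below 0 on both arrays. Centred without loess, Calr had 0.69 and -0.093 and Dnajc3 0.29 and -0.56.

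Other J proteins of the ER and the stress factor Ddit3 gave no common direction either. Dnajb11 (ERdj3), a BiP partner, had 2679 against 2219 on array 1 and 2589 against 2411 on array 2, with ratios of 0.39 and -0.0014. Dnajc10 (ERdj5), a reductase that aids the removal of misfolded proteins, had 0.0050 and -0.15. Dnajc1 had -0.22 and -0.090. Ddit3 (CHOP), the transcription factor induced late in ER stress, had intensities of 3524 in the degenerative and 4573 in the normal cornea on array 1, and of 4091 and 4051 on array 2. Its ratios were -0.25 and -0.046 (-0.15 ± 0.14), a difference about as large as its SD. The normalized ratios of Canx and Hspa5 were thus positive on both arrays while that of Ddit3 was negative on both, and all 3 lay under 0.5 in size. For Canx and Hspa5 the sign on array 2 depended on how ratios were centred, as given above.

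The HSP70 genes outside the ER had ratios near 0. The 7 measured genes of the HSP70 and HSP110 class, Hspa5 included, had a median ratio of 0.084. Their means ran from 0.028 for Hspa8 to 0.24 for Hspa5, 5 of the 7 being above 0 on both arrays (71.4%, against 34.6% of all genes) and 0 below 0 on both (all genes 32.9%). Hspa8, the HSP70 that cells make at all times, had 2 spots with 37092 and 7865 in the degenerative and 37673 and 8083 in the normal cornea on array 1. On array 2 the Hspa8 spots had 35126 and 7765 in the degenerative and 36285 and 7903 in the normal cornea. The tissues were nearly equal on each spot, and the ratios were 0.033 and 0.022. Hspa9a (mortalin, the mitochondrial HSP70) had 0.064 and 0.25, Hspa14 0.11 and 0.095, Hspa4, an HSP110 that swaps nucleotides on HSP70, 0.030 and 0.11, and Hspa2, known from the testis, 0.17 and -0.00040. The 2 spots of the HSP110 gene Hsp105 (Hsph1) went apart, with means of 0.28 and -0.14. Hspa1b was not among the member names, and Hspa1l, its close relative, was not above background.

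The 2 cytosolic HSP90 genes differed in sign. Hspca (Hsp90aa1), the stress-inducible form, had intensities of 25527 in the degenerative and 31807 in the normal cornea on array 1, and of 26359 and 28823 on array 2. The normal cornea was brighter on both, with normalized ratios of -0.37 and -0.039 (-0.21 ± 0.24), but 0.30 and -0.67 when centred without loess. Hspcb (Hsp90ab1), the form made at all times, had ratios of 0.087 and 0.11 (0.097 ± 0.014), and its 2 spots had means of 0.071 and 0.12. The mean of Hspca was smaller in size than its SD, so its difference from 0 did not exceed the spread between the arrays. Hsp90b1 was not among the member names.

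Hspd1 and Hspe1 encode the HSP60 ring and its HSP10 lid, which fold proteins in mitochondria, and they lie head to head with a shared promoter. The stretch between them is shown because it holds a match to the heat shock element, the sequence that heat shock factors bind. The motif searched was GAA, TTC and GAA in a row with 2 bases of any kind between units, on both strands, and windows with several overlapping matches were counted once. It was found in 198 of 32851 windows (0.603%), and in windows of 4 of the 49 member genes: Hspd1, Hspe1, Dnajb6 and, after its start, Hsp105. Units are in capitals (GAA or, on the other strand, TTC), on the strand of the gene.
Hspe1 (chr1:55088028-55088107, plus strand): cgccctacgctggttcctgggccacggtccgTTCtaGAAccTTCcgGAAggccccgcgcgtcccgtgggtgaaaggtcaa
Dnajb6 (chr5:29735818-29735897, plus strand): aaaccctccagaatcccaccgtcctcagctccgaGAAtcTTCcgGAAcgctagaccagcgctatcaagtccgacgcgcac

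The 4 genes with this element had mean ratios between -0.046 and 0.071. Those of Dnajb6 (spots at -0.087 and 0.23) and Hsp105 (spots at -0.14 and 0.28) average spots of opposite sign. Hspd1 had 6630 in the degenerative and 7167 in the normal cornea on array 1, and 7415 and 6333 on array 2, the tissue in Cy3 being brighter on each array, and ratios of -0.045 and 0.14. Hspe1 had ratios of 0.062 and -0.16 (-0.046 ± 0.15). A spot named for Hspe1-ps2, a pseudogene, had -0.12 and -0.44 (-0.28 ± 0.23). A pseudogene copy is nearly identical to its parent, and which transcript this spot measured is uncertain.

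The Dnaj genes, those of the ER included, were scattered around 0. Of 28 Dnaj names 23 were above background, of which 5 were above 0 on both arrays (21.7%, against 34.6% of all genes) and 11 below 0 on both (47.8%, against 32.9%), with a median of -0.049. The 4 Dnaja genes had a median of -0.20. Dnaja1, a partner of Hspa8, had ratios of -0.20 and -0.14 (-0.17 ± 0.039). Dnaja4 was the lowest of the Dnaj genes, with 814 in the degenerative and 1274 in the normal cornea on array 1, 1097 and 917 on array 2, and ratios of -0.41 and -0.10. Dnaja2 had -0.032 and -0.41. Dnaja3, a J protein of mitochondria, was the highest of the 4, with 1175 against 1064 and 985 against 782, and ratios of 0.29 and 0.048.

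The 8 measured Dnajb genes had a median of 0.043 and means from -0.22 for Dnajb8 to 0.20 for Dnajb11. Dnajb1 (HSP40), the stress-inducible partner of HSP70, had ratios of 0.080 and 0.076 (0.078 ± 0.0029). Dnajb4 had 0.084 and 0.22 over 2 spots, and the 2 Dnajb6 spots had means of 0.23 and -0.087. Dnajb8, known from the testis, had 829 in the degenerative and 967 in the normal cornea on array 1, 911 and 959 on array 2, and ratios of -0.033 and -0.40. Dnajb5 had -0.035 and -0.36, and Dnajb10 (Dnajb2) and Dnajb12 had means of -0.016 and 0.016.

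The 11 measured Dnajc genes had a median of -0.071. Dnajc5 (cysteine string protein), a chaperone of synaptic vesicles, was the highest, with 571 in the degenerative and 592 in the normal cornea on array 1, 814 and 558 on array 2, and ratios of 0.32 and 0.17. The degenerative cornea was dimmer on array 1 and brighter on array 2. Dnajc8, a nuclear protein of the splicing machinery, was the lowest, with 40380 against 43041 and 36752 against 46279. Its ratios were -0.14 and -0.27 (-0.21 ± 0.093), the normal cornea being brighter on both arrays. Dnajd1 (Dnajc15), of the inner mitochondrial membrane, had -0.29 and -0.078, and Dnajc9, a histone chaperone of the nucleus, -0.065 and -0.11. Dnajc13, of endosomes, had 0.34 and 0.11, Dnajc7 -0.0093 and -0.088, and Dnajc11 0.10 and -0.029. Dnajc4 had -0.34 and 0.24, with a mean of -0.049 ± 0.41.

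The CCT ring, which folds actin and tubulin, had ratios near 0 in all measured subunits. Of 7 subunits taken by the rule 6 were above background, with means from -0.11 for Cct4 to 0.10 for Cct8 and a median of -0.033. No spot was found for Tcp1, a further subunit. Cct4 had 9683 in the degenerative and 10051 in the normal cornea on array 1 and 9114 and 9782 on array 2, with ratios of -0.034 and -0.19. Cct8 had 23618 against 22341 and 23199 against 21549, with ratios of 0.064 and 0.14. Cct2 (0.015 ± 0.066), Cct3 (-0.050 ± 0.057), Cct5 (-0.016 ± 0.073) and Cct7 (-0.11 ± 0.15) lay between them. The rule also took 2 genes whose products bind heat shock proteins but are not known as chaperones, Hspbap1 (0.38 and 0.16) and Hspa5bp1 (Tmem132a, -0.0033 and -0.024).

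**Figure D4:**
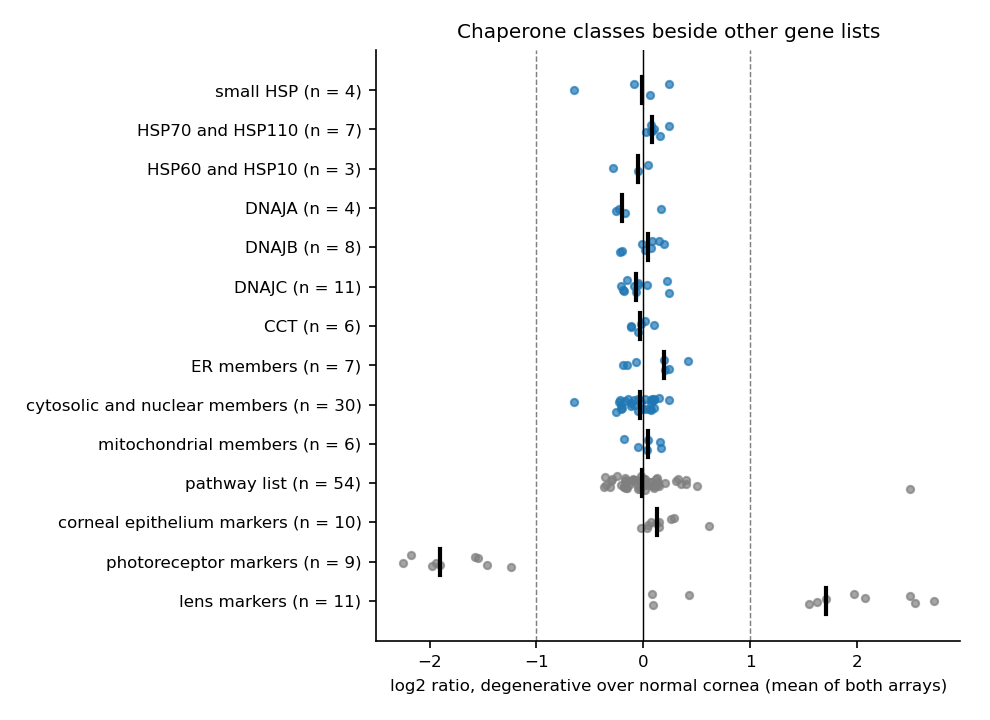
Each point is a gene, placed by the mean log2 ratio of degenerative over normal cornea over both arrays, and black bars are medians. Chaperone classes of at least 3 measured genes and compartments (blue) have medians between -0.20 and 0.20, while photoreceptor and lens markers (grey, with the pathway list and the corneal epithelium markers) have medians of -1.91 and 1.71. Members of the compartments are also members of the classes, and dashed lines mark 1 and -1.

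The 11 members without a spot above background were Hspa1l, Hspa12a, Hspa12b, Hspb3, Hspb9, Cct6a, Dnajb3, Dnajb9, Dnajc5b, Dnajc6 and Dnajc12. Their median SD between arrays was 0.33, against 0.11 for the members above background, and 5 of the 11 had opposite signs on the arrays. Dnajb9 (ERdj4), a target of the unfolded protein response that binds BiP, is named here after its values were seen. It had intensities of 373 in the degenerative and 423 in the normal cornea on array 1 and of 642 and 212 on array 2. The ratios were 0.67 and 0.72, but on array 2 neither tissue exceeded its background limit (788.5 for the degenerative and 373.2 for the normal cornea). Hspa12a, also named after its values were seen, had -2.42 and -0.69, with 8 against 281 and 170 against 118. No fold is given for these genes.

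Genes that work with the chaperones were read from a separate list of 79, of which 54 were above background. By the size rule 1 of the 54 was higher and 0 were lower, beside 0.317% and 0.709% of all genes. The list's median was -0.0072, with ratios of 1 sign on the arrays for 19 genes above 0 (35.2%, all genes 34.6%) and 22 below 0 (40.7%, all genes 32.9%). The gene called higher was Cryaa, the lens small heat shock protein alpha-A crystallin, at 2.49 ± 0.35 (5.63-fold), one of the lens markers. The next highest were Asns, asparagine synthetase and a target of ATF4, with 1958 against 1511 and 1570 against 958 and ratios of 0.52 and 0.49, Eif2ak3 (PERK), an ER stress sensor, at 0.40 ± 0.42, and the co-chaperone Bag4 at 0.40 ± 0.18. The lowest were Grpel1, the nucleotide exchange factor of the mitochondrial HSP70 (-0.36 ± 0.011), the ER protein Sdf2 (-0.36 ± 0.19), Bag2 (-0.34 ± 0.24) and the ER prolyl isomerase Ppib (-0.32 ± 0.15). Other genes of the unfolded protein response, named after their values were seen, had ratios of 0.097 ± 0.091 (Xbp1), -0.21 ± 0.027 (Atf4) and 0.076 ± 0.096 (Herpud1), and Atf6, Ern1, Atf3, Trib3 and the heat shock factors Hsf1, Hsf2 and Hsf4 were not above background.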

How the data were processed

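Each deposited table holds 37632 spots with a Cy5 and a Cy3 intensity and a log2 ratio that the authors normalized, per the file headers. The same ratio on the linear scale is in the deposited tables too and was not analysed further. Values below 0 show that a background had been subtracted; how, and how the ratios were normalized, is not given in the sources analysed. The value table of the series equals the deposited log2 ratios.

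Control spots (1780) were left out. A spot was kept if at least 1 tissue exceeded its limit on each array. The limit was set from the 632 Empty spots, at 3 median absolute deviations (times 1.4826) over their median. The limits were 290.0 and 788.5 for degenerative and 569.5 and 373.2 for normal cornea (arrays 1 and 2). This kept 14894 gene spots and 57 of the 73 member spots. Spots of a name were averaged. A spot at 98% of the highest intensity of its channel counted as saturated, which held for 0 member spots. Names were updated through a gene table of GRCm38.p6: 55 of 62 member names were current symbols and 7 synonyms. Classes and compartments were assigned by hand from textbook knowledge. Members, lists and the rules for naming genes were chosen with earlier results of these data known. The rule gives intensities for members past 0.5 on both arrays, for the extremes of each class and for fixed stress genes, and names the 4 highest and 4 lowest list genes. The size rule was tested on simulated data with changes far past its limit, which does not bear on the smaller ratios given here. Print-tip loess and loess used limma 3.58.1 (R 4.3.3), and tables were read with Python 3.11.15, numpy 2.4.6 and pandas 2.3.3. The number of arrays limits the precision. One member is in the counts and medians but is not reported or plotted by itself here.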

Additional observations from a re-analysis of the deposited data

How the results depend on the processing

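No paired analysis was possible because there is only 1 replicate; each ratio is already a difference within an array. No member was called higher in any of 13 alternatives. With a size of 0.5 on each array 1 member was called lower, and in the other 12 alternatives none was. The counts of members above and below 0 on both arrays (17 and 20) were 3 and 2 with raw ratios centred on the median. That median was taken over all gene spots, most of which lay below the background limit in each channel. The count below 0 was 13 with a loess over the whole array. The cause of these shifts was not tested. For the pathway list the centred raw ratios gave 7 above and 0 below, in place of 19 and 22. Medians were compared with the median SD between arrays of their members. The median of all members ran from -0.031 to 0.024 over 12 alternatives, and its sign differed in 5 of them. The small heat shock median was -0.29 with the background limit at the 95th percentile of the Empty spots, which leaves 2 of its genes, and ran from -0.18 to 0.17 on single arrays. The ER median ran from -0.0014 to 0.16 on single arrays. Canx ran from 0.41 to 0.47 and Hspb8 from -0.66 to -0.48 over 11 alternatives each, with no change of sign in the mean over both arrays. The raw Canx ratio was below 0 on array 2 only once centred on the median (-0.097). Hspa5 ran from 0.16 to 0.32. Dnajb11, Hspa8 and Hspd1 each changed sign in 1 alternative. Leaving out 4 names that are not those of chaperone genes, an alternative chosen after seeing the data, gave a median of 0.015. Spots near background have no usable ratio here, which bears on 11 members.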

Other observations

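Protein disulfide isomerases, which form and rearrange disulfide bonds in the ER, are on the arrays under names that the rule did not take, and are named here after their values were seen. Pdia3, which is on the arrays as Grp58, had intensities of 22040 in the degenerative and 17507 in the normal cornea on array 1 and of 21831 and 18026 on array 2. The degenerative cornea had the higher intensity on both arrays, and the normalized ratios were 0.37 and 0.22 (0.30 ± 0.11). Ratios centred without loess, in which Canx and Calr fell below 0 on array 2, were not read for Pdia3. Pdia3 works in the calnexin cycle with Canx (0.42 ± 0.011) and Calr (0.20 ± 0.21). Other genes of that cycle had ratios of -0.0080 and 0.050 (Uggt1, mean 0.021), 0.027 and -0.0061 (Prkcsh, mean 0.010) and 0.25 and 0.41 (Ganab). Uggt1 and Prkcsh were near 0 with opposite signs on the arrays. These genes of the cycle were picked after their values were seen, and 34.6% of all genes were above 0 on both arrays. The related isomerases P4hb and Txndc5 had 0.12 ± 0.018 and 0.14 ± 0.029, whereas Erp29 had -0.16 ± 0.010. Pdia5 (Pdir) was not above background.

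The alpha crystallins, both of them small heat shock proteins, did not give like ratios. Cryaa had 2.74 on array 1 and 2.25 on array 2. The 2 spots named Cryab disagreed with each other on both arrays: the spot with 18459 in the degenerative and 15306 in the normal cornea on array 1 had ratios of 0.22 and 0.37, and the spot with 1446 and 1908 had -0.27 and -0.42. Their mean of -0.024 therefore describes neither spot, and which of them reports the transcript was not tested.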
